A study of Homo sapiens with 3 samples.

Results

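The enzymes that build cholesterol and fatty acids were described in SK-Hep-1, an established human cell line of liver origin per the labels. The 38 genes were taken by symbol from a list that was set with earlier results of these data known. All 38 were found among the 22464 genes of the deposited table. They comprise a sterol branch of 20 genes and a fatty acid branch of 18. Cells of the shNC group carried a negative control hairpin, and cells of the sh1089-1 and sh1089-2 groups each carried a different short hairpin RNA against the long noncoding RNA LINC01089. Every hairpin was introduced stably by lentiviral infection, so the control also carries an integrated vector. No age, dose or time after infection is given, nor whether a line is a clone or a pool. Each group is 1 RNA sequencing library, so the study asks which genes depend on LINC01089 without a replicate of any group. Whether the libraries come from cultures grown side by side is not stated. The LINC01089 transcript was not analysed here, and how far each hairpin lowered it is not known from these values.

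Cholesterol and fatty acids are both built from acetyl-CoA in the cytosol and the endoplasmic reticulum. The sterol branch runs through mevalonate and the isoprenoids to squalene, which is closed to lanosterol and trimmed to cholesterol. The fatty acid branch makes malonyl-CoA and then palmitate, which is elongated, desaturated and built into glycerolipids. Genes of both branches are known targets of the sterol regulatory element-binding proteins, SREBP-1 and SREBP-2. These transcription factors are held in the endoplasmic reticulum by INSIG proteins when sterols are plentiful, and they act on promoters together with NF-Y, a factor that binds CCAAT boxes.

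Levels are FPKM, fragments scaled to gene length and library depth. The libraries held 10698480 (shNC), 9528312 (sh1089-1) and 8359832 (sh1089-2) reads, so the depth falls in the order in which many of the values below climb, and the part of depth in them was not tested. Mitochondrial genes took 4.69% to 5.24% of reads. The hepatocyte identity of the labelled tissue was not seen in the defining markers: of 15 on the list 9 had a value, 8 of them lay below 1 FPKM in every library, and APOA1, TTR and FGB were at 0. The summed level of these markers was 5.83, 7.25 and 8.76 FPKM in shNC, sh1089-1 and sh1089-2, mostly from SERPINA1. Endothelial markers summed to 2.25 to 2.76 FPKM over 11 genes, with FLT1 at 0, and blood cell markers to 2.37 to 2.56 FPKM over 5 genes, with LYZ at 0. Mesenchymal markers, with VIM among them, summed to 1273, 1446 and 1813 FPKM over 8 genes. VIM carried that order (922, 1171 and 1445), while SPARC had 312, 230 and 308 FPKM and TAGLN was highest in shNC at 4.10 FPKM. THY1 (6.85, 12.2 and 11.9 FPKM) and CDH2 (6.01, 11.3 and 12.3) were lowest in shNC, and FN1 (20.2, 18.5 and 32.1) in sh1089-1. The collagens COL1A1 and COL1A2 lay below 1 FPKM in every library. The part of these markers in the results below was not tested.

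Differences were taken in log2(FPKM + 1). A gene counted as higher or lower when it differed by at least 1.5-fold on that scale, which is 0.585. Adding 1 shrinks the differences of low genes, so a gene of a few FPKM can have a plain ratio above 1.5 and still lie within the bound. The rule was applied to 11198 genes with a mean of at least 1 FPKM over the 3 libraries. Of the 38 genes 35 passed this filter. The other 3, CYP51A1, ACACB and GPAM, are given by value. Printed ratios are plain ratios of FPKM with their 95% counting intervals (Clopper-Pearson), which cover counting error only. With 1 library a group, no p-value is given for any difference.

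Sterol and fatty acid genes were higher in sh1089-2, and a smaller number were higher in sh1089-1. In sh1089-2 16 of the 35 tested genes (45.7%) were at least 1.5-fold above shNC, against 4.89% of all genes tested, and 0 were lower, against 5.63%. In sh1089-1 7 of the 35 (20.0%) were higher, against 5.27%, and 0 lower, against 5.83%. At 2-fold, 6 genes were higher in sh1089-2 (background 1.63%) and 1 in sh1089-1 (1.38%). Both comparisons use the same shNC library, so anything particular to that library enters both. The genes were chosen with earlier results of these data known, so these shares are a description and not independent support. The median difference over the 35 genes was 0.19 in sh1089-1 and 0.50 in sh1089-2, while over all 11198 genes it was -0.03 and -0.04.

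The hairpin lines were also set against each other, a comparison that does not use shNC. Between sh1089-2 and sh1089-1, 6 of the 35 genes (17.1%) were higher in sh1089-2 by the same rule, against 2.47% of all genes, and 1 was lower, against 2.30%. At 2-fold, 1 gene was higher, against 0.839%. The median difference was 0.29, beside -0.01 over all genes. The sh1089-2 library held the highest of the 3 values for 26 of the 35 genes, where it did so for 26.6% of all genes tested. The shNC library held the lowest value for 24, where it did so for 33.5%.

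Most of these differences were larger than counting error. The counting interval of the ratio of sh1089-2 to shNC lay wholly above 1 for 26 of the 35 genes and wholly below 1 for 3, against 22.1% and 27.6% of all genes tested. In sh1089-1 it lay above 1 for 19 and below 1 for 4, against 24.6% and 27.9%. Between the hairpin lines it lay above 1 for 22 and below 1 for 4, against 17.5% and 20.2%. The 3 genes below 1 in sh1089-2 were PMVK, ME1 and ELOVL1.

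**Figure D1:**
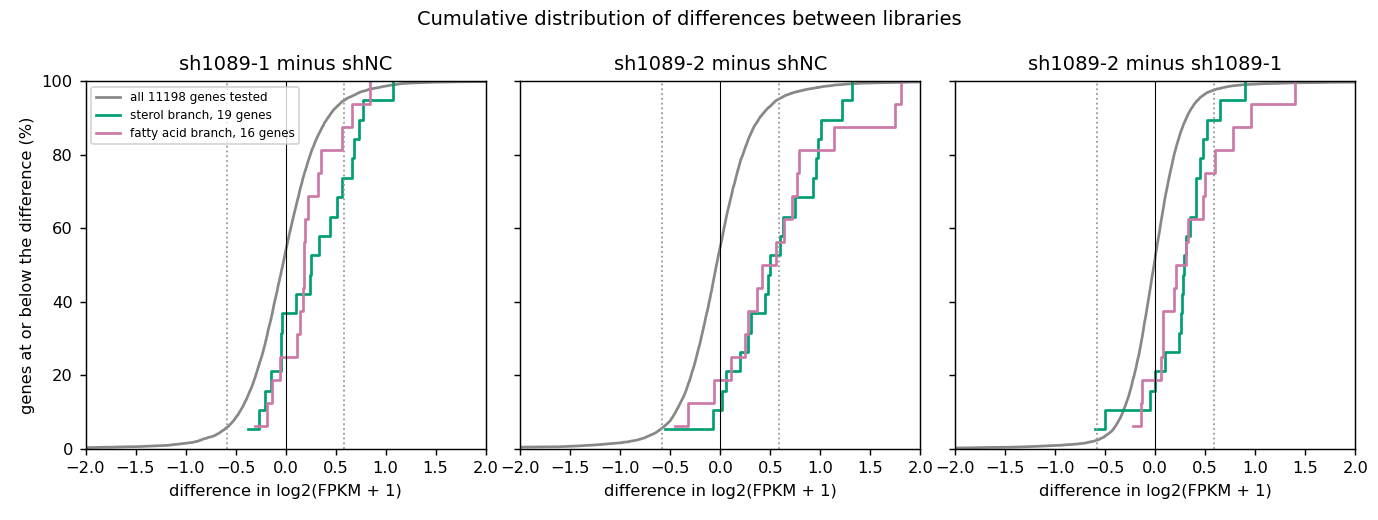
Cumulative share of genes (percent, y axis) against the difference in log2(FPKM + 1) between 2 libraries (x axis), for the 11198 genes tested, the 19 tested sterol genes and the 16 tested fatty acid genes; dotted lines mark 1.5-fold. Both branch curves lie to the right of all genes over most of their length, most widely for sh1089-2 minus shNC, where the medians are 0.50 and 0.49.

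The promoters of the genes were examined because SREBP works with NF-Y. RefSeq windows of 300 bases on GRCh38.p14, 250 before to 50 after each annotated start, were matched by symbol for 33 of the 38 genes (49 windows). ACAT2, FDFT1, SQLE, FASN and HSD17B12 had no window and are left out of the shares below. CCAAT, the NF-Y box, was searched on both strands and stood in at least 1 window of 27 of the 33 genes (81.8%). It stood in 43.2% of the 8433 tested genes with a window and in 39.7% of all 27305 genes with one. Per window the shares were 65.3% of 49 and 34.6% of 35116. GGGCGG, the GC box, stood in 93.9% of the 33 genes, against 79.5% of tested genes and 48.3% of all. CACGTG, an E-box, stood in 9.09%, against 13.1% and 8.77%. TCACNCCAC, a stringent form of the sterol regulatory element, was in 0 of the 33 genes, against 1.32% of tested genes and 1.39% of all. None of these motifs contains another, though they can overlap at their ends, and a match is a description of letters.

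Of the 14 windowed genes that were higher in sh1089-2, 13 held CCAAT, and of the 16 within 1.5-fold 12 held it. The 6 genes with a window and no CCAAT were CYP51A1, ELOVL6, FADS1, LPIN1, ME1 and PMVK. Of these LPIN1 alone was higher in sh1089-2. As chosen examples, the stretches below show the box in 4 genes higher in sh1089-2, with ME1 as a gene that was not and lacks it. They run 5′ to 3′ on the strand of the gene and stop before the first base that GENCODE 29 gives to it. CCAAT or its complement ATTGG is in capitals.

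FDPS (chr1:155308616-155308747, plus strand): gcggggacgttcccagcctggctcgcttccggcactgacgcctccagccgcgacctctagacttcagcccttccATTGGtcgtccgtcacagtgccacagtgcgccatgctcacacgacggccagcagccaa
LSS (chr21:46228825-46229024, minus strand): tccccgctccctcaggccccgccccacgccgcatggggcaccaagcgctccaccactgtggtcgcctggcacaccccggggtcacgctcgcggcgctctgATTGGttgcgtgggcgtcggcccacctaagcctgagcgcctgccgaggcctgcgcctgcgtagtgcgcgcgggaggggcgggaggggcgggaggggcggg
HMGCS1 (chr5:43313513-43313662, minus strand): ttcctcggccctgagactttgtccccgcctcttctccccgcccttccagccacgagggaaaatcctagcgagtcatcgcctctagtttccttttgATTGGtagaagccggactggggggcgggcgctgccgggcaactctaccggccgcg
SCD (chr10:100346983-100347123, plus strand): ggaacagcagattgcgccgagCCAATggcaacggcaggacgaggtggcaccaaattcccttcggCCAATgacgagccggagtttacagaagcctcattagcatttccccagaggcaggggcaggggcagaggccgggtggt
ME1 (chr6:83431072-83431301, minus strand): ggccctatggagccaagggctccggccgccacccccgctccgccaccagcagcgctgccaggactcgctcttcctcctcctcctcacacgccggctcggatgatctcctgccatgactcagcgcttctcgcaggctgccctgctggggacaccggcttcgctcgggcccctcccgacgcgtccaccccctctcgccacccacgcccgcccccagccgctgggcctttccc

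The stretches are shorter than the windows and leave out some matches. In the whole windows of these genes CCAAT or ATTGG was found 3 times for FDPS, 2 times each for HMGCS1 and SCD, 1 time for LSS and 0 times for ME1. The levels of these 5 genes follow under their steps.

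The mevalonate steps turn acetyl-CoA into the isoprenoid units of sterols. Of the 8 genes, 5 were at least 1.5-fold higher in sh1089-2 (HMGCS1, MVK, MVD, IDI1 and FDPS), 1 in sh1089-1 (FDPS) and 0 lower in either. FDPS, farnesyl diphosphate synthase (chromosome 1, 155308748 to 155320666), stood at 25.6 (shNC), 44.5 (sh1089-1) and 60.8 FPKM (sh1089-2). That is 1.73-fold (1.60 to 1.88) and 2.37-fold (2.20 to 2.56) above shNC, with the hairpin libraries themselves 1.37-fold (1.28 to 1.46) apart. IDI1, isopentenyl-diphosphate isomerase, had 7.96, 11.8 and 16.0 FPKM and was 2.01-fold (1.76 to 2.29) higher in sh1089-2. FDPS and IDI1 thus stood in the same order in the 3 libraries. MVK, mevalonate kinase, kept that order with 3.23, 5.24 and 7.30 FPKM, 2.26-fold (1.92 to 2.68) higher in sh1089-2. In sh1089-1 its ratio was 1.62 (1.37 to 1.93), within the bound on the log2(FPKM + 1) scale at 0.56. MMAB overlaps MVK by 306 exonic bases on the other strand and had 1.79, 2.44 and 3.12 FPKM. The part of MMAB reads in the value of MVK was not tested. MVD, mevalonate diphosphate decarboxylase, had 2.56, 3.47 and 4.36 FPKM. Its difference of 0.59 in sh1089-2 lies just past the bound.

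HMGCS1 departed from that order. This cytosolic HMG-CoA synthase (chromosome 5, 43289395 to 43313512) stood at 5.53 (shNC), 4.89 (sh1089-1) and 9.98 FPKM (sh1089-2). It was 1.81-fold (1.58 to 2.06) above shNC in sh1089-2, while the interval of its ratio in sh1089-1, 0.885 (0.760 to 1.03), holds 1. Against sh1089-1 it was 2.04-fold (1.77 to 2.35) higher in sh1089-2. ACAT2, the acetoacetyl-CoA thiolase of the first step, had 13.0, 18.1 and 18.1 FPKM, so the hairpin libraries were level and 1.39-fold above shNC in each case. GENCODE 29 lays 35.8% of its exonic bases under exons of SOD2 or TCP1 on the other strand, and use of the strand in counting is not given, so its values are uncertain.

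The remaining mevalonate genes were not higher. PMVK, phosphomevalonate kinase, acts between MVK and MVD and went the other way, with 33.0, 31.9 and 22.2 FPKM. It had the highest shNC level of the sterol branch and was 1.49-fold (1.24 to 1.79) lower in sh1089-2, a difference of -0.55 within the bound. GGPS1, geranylgeranyl diphosphate synthase, makes isoprenoids for proteins rather than sterols and had 1.37, 0.827 and 1.26 FPKM on 56, 30 and 40 reads. Exons of TBCE cover 37.3% of the exonic bases of GGPS1 on the same strand, which makes its values uncertain too.

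The steps from squalene to cholesterol had 11 genes, of which 10 were tested. In each hairpin library 4 were at least 1.5-fold higher: FDFT1, LSS, EBP and DHCR7 in sh1089-1, and FDFT1, LSS, HSD17B7 and DHCR7 in sh1089-2. FDFT1, squalene synthase, had 19.2, 31.0 and 49.2 FPKM in the same library order, 1.62-fold (1.49 to 1.75) and 2.57-fold (2.38 to 2.76) above shNC. It was 1.59-fold (1.49 to 1.70) higher in sh1089-2 than in sh1089-1, so it passed the bound in each of the 3 comparisons. LSS, lanosterol synthase (chromosome 21, 46188141 to 46228824), had 10.5, 18.1 and 22.1 FPKM, 1.73-fold (1.58 to 1.89) and 2.11-fold (1.93 to 2.30) above shNC. DHCR7, the reductase of the last step, had 11.8, 19.7 and 23.9 FPKM, 1.66-fold (1.49 to 1.86) and 2.02-fold (1.80 to 2.25) higher. For LSS and DHCR7 the larger gap lay between shNC and the hairpin libraries, not between the hairpin libraries.

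EBP and HSD17B7 were each called in 1 hairpin library. EBP, the sterol isomerase (chromosome X, 48521158 to 48528716), stood at 5.02 (shNC), 11.7 (sh1089-1) and 7.37 FPKM (sh1089-2), on 95, 197 and 109 reads. It was 2.33-fold (1.81 to 3.01) higher in sh1089-1, the gene furthest above shNC there, and 1.59-fold (1.25 to 2.02) lower in sh1089-2 than in sh1089-1. HSD17B7, a 3-keto-steroid reductase, had 2.70, 2.99 and 4.71 FPKM, near shNC in sh1089-1 and 1.74-fold (1.39 to 2.19) higher in sh1089-2. Between the hairpin lines its difference of 0.52 was within the bound. A copy of it, HSD17B7P2, had 8, 9 and 16 reads beside its 138, 136 and 188, and reads could be shared between them.

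The other genes of these steps stayed within the bound. SQLE, squalene epoxidase, which oxidises squalene before its closure, had 19.4, 16.7 and 23.7 FPKM, 1.16-fold (1.05 to 1.28) below shNC in sh1089-1 yet 1.22-fold (1.11 to 1.34) above it in sh1089-2. NSDHL, a decarboxylating sterol dehydrogenase, had 18.0, 21.7 and 25.8 FPKM. MSMO1, the C4 methyl oxidase, had 13.2, 12.9 and 16.7 FPKM. Of these 3, NSDHL alone kept the order of FDPS. TM7SF2, a sterol reductase, had 2.74, 3.45 and 3.30 FPKM, and SC5D, a sterol desaturase, 1.52, 1.45 and 1.62, with the intervals of both holding 1 in each comparison. CYP51A1, lanosterol demethylase, was below the filter on 26, 46 and 18 reads, with 0.689, 1.37 and 0.610 FPKM. STARD4, a carrier that moves sterol between membranes and not an enzyme, had 5.92, 4.75 and 6.02 FPKM.

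**Figure D2:**
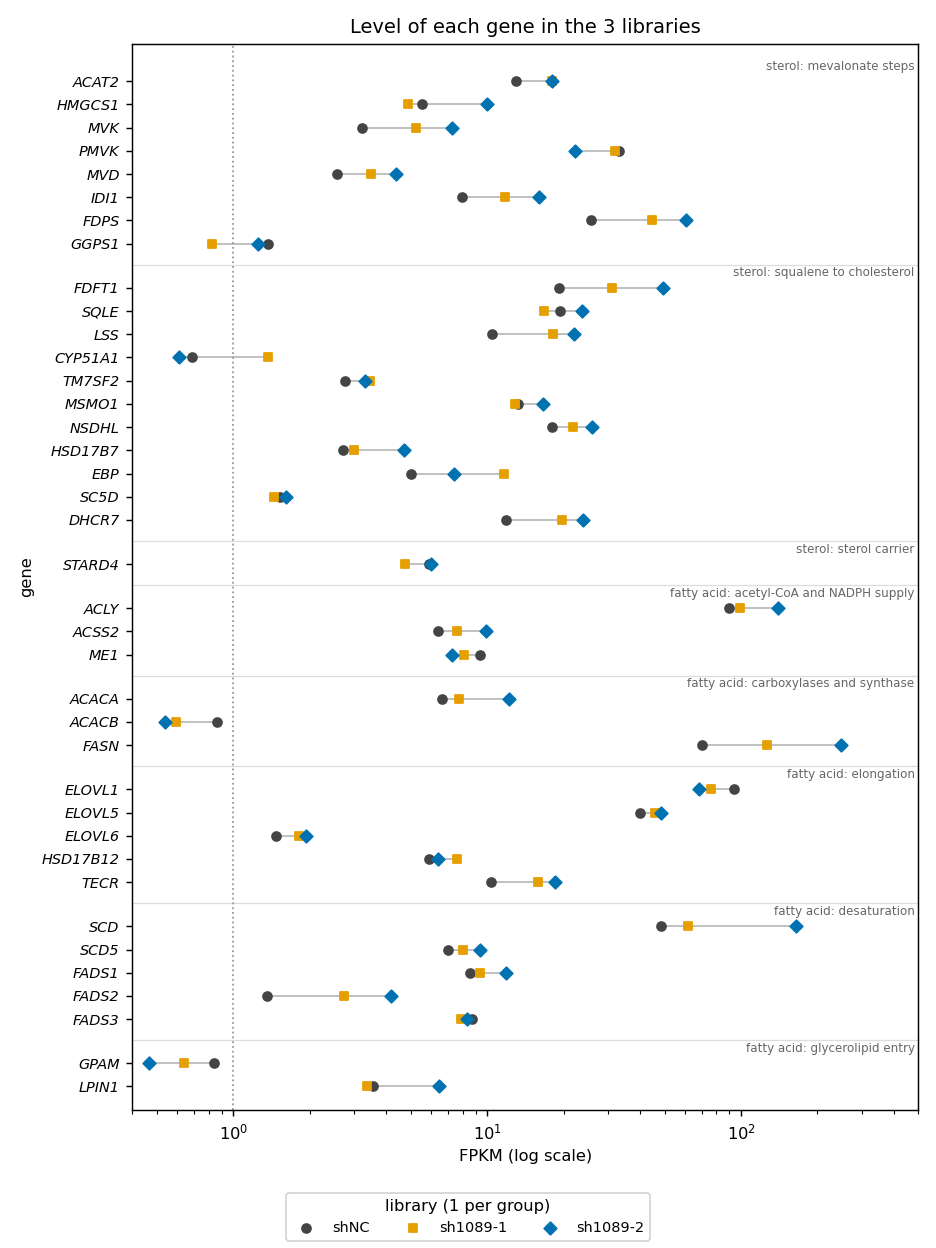
FPKM (log scale, x axis) of each of the 38 genes in the 3 libraries, grouped by step; each point is 1 library and the dotted line marks 1 FPKM. The sh1089-2 point is the rightmost for most genes, FASN spans 70.2 to 248 FPKM, and PMVK, ME1, ELOVL1, ACACB and GPAM run the opposite way.

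The supply of acetyl-CoA and NADPH opens the fatty acid branch. ACLY, ATP citrate lyase, makes cytosolic acetyl-CoA from citrate and stood at 89.5 (shNC), 99.0 (sh1089-1) and 140.0 FPKM (sh1089-2). It was 1.11-fold (1.06 to 1.15) and 1.56-fold (1.51 to 1.62) above shNC. ACSS2, which makes acetyl-CoA from acetate, had 6.38, 7.64 and 9.87 FPKM, and its difference of 0.56 in sh1089-2 stayed within the bound. ME1, the malic enzyme that yields NADPH, was the exception, with 9.35, 8.08 and 7.27 FPKM and a level 1.29-fold (1.08 to 1.54) lower in sh1089-2.

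Fatty acid synthesis proper had the gene with the widest range. FASN, fatty acid synthase (chromosome 17, 82078333 to 82098332), stood at 70.2 (shNC), 126.8 (sh1089-1) and 248 FPKM (sh1089-2), on 7004, 11264 and 19334 reads. Each step of that order was close to a doubling, 1.81-fold (1.75 to 1.86) from shNC to sh1089-1 and 1.96-fold (1.91 to 2.00) from sh1089-1 to sh1089-2. ACACA, the acetyl-CoA carboxylase that commits carbon to synthesis, had 6.66, 7.73 and 12.2 FPKM. It was 1.16-fold (1.06 to 1.27) higher in sh1089-1 and 1.84-fold (1.69 to 2.00) in sh1089-2. ACACB, the mitochondrial carboxylase, whose product curbs fatty acid oxidation, had the opposite order. It lay below the filter with 0.864, 0.593 and 0.536 FPKM on 134, 82 and 65 reads, 1.61-fold (1.19 to 2.20) lower in sh1089-2.

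Elongation of fatty acids takes place in the endoplasmic reticulum. Of its 5 genes 1 was at least 1.5-fold higher, in sh1089-2. That gene, TECR, the enoyl-CoA reductase of the elongation cycle, had 10.4, 15.8 and 18.4 FPKM. DNAJB1 overlaps TECR by 211 exonic bases on the other strand and had 70.3, 105 and 123 FPKM. A copy, TECRP1, had 2, 8 and 7 reads. The part of DNAJB1 or TECRP1 reads in the value of TECR was not tested. ELOVL1, which elongates saturated very long chains, had 94.0, 75.8 and 68.6 FPKM, the highest level of the 38 genes in shNC, and was below shNC by 1.24-fold (1.17 to 1.32) in sh1089-1 and 1.37-fold (1.28 to 1.46) in sh1089-2. ELOVL5, which acts on polyunsaturated chains, had 39.9, 45.7 and 48.4 FPKM. ELOVL6, the elongase of palmitate, had 1.47, 1.81 and 1.93 FPKM. None of the 3 elongases passed the bound in any comparison. HSD17B12, the ketoacyl-CoA reductase of the same cycle, was highest in sh1089-1, with 5.88, 7.63 and 6.39 FPKM.

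The desaturases place double bonds in the chains. SCD, the stearoyl-CoA desaturase that makes oleate (chromosome 10, 100347124 to 100364834), stood at 48.3 (shNC), 61.9 (sh1089-1) and 164 FPKM (sh1089-2). It was 1.28-fold (1.22 to 1.35) above shNC in sh1089-1 and 3.41-fold (3.26 to 3.56) in sh1089-2. The hairpin lines were 2.66-fold (2.55 to 2.77) apart, the widest gap of the 35 tested genes in that comparison. SCD5, the second human stearoyl-CoA desaturase, had 7.00, 8.06 and 9.33 FPKM, within the bound. Relative to shNC, SCD and SCD5 were therefore near each other in sh1089-1 and far apart in sh1089-2.

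The 3 FADS genes lie together on chromosome 11, with FADS1 inside the span of FADS2, and were unlike each other. FADS2, the delta-6 desaturase that opens polyunsaturated fatty acid synthesis, had 1.36, 2.72 and 4.19 FPKM on 153, 274 and 370 reads. It was 2.01-fold (1.64 to 2.47) and 3.09-fold (2.56 to 3.76) above shNC. FADS1, the delta-5 desaturase, had 8.59, 9.38 and 11.8 FPKM, and FADS3 had 8.72, 7.85 and 8.32. The 3 genes share their neighbourhood, and the 50 nearest tested coding genes had medians of 0.14 in sh1089-1 and 0.11 or 0.12 in sh1089-2. FADS2 also overlaps FEN1, a DNA repair nuclease gene, by 49 exonic bases on the same strand, and FEN1 had 14.2, 41.1 and 31.6 FPKM. FADS1 and FADS2 share 490 exonic bases on opposite strands, and use of the strand in counting is not given. The part of FEN1 or FADS1 reads in the value of FADS2, or of FADS2 reads in that of FADS1, was not tested.

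Entry into glycerolipids was represented by LPIN1, which was tested, and GPAM, which was not. LPIN1, a phosphatidate phosphatase, stood at 3.54 (shNC), 3.35 (sh1089-1) and 6.46 FPKM (sh1089-2). It was 1.83-fold (1.62 to 2.07) above shNC in sh1089-2, while the interval in sh1089-1, 0.948 (0.824 to 1.09), holds 1. GPAM, the mitochondrial glycerol-3-phosphate acyltransferase, lay below the filter with 0.839, 0.642 and 0.463 FPKM on 88, 60 and 38 reads, 1.81-fold (1.22 to 2.72) lower in sh1089-2.

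**Figure D3:**
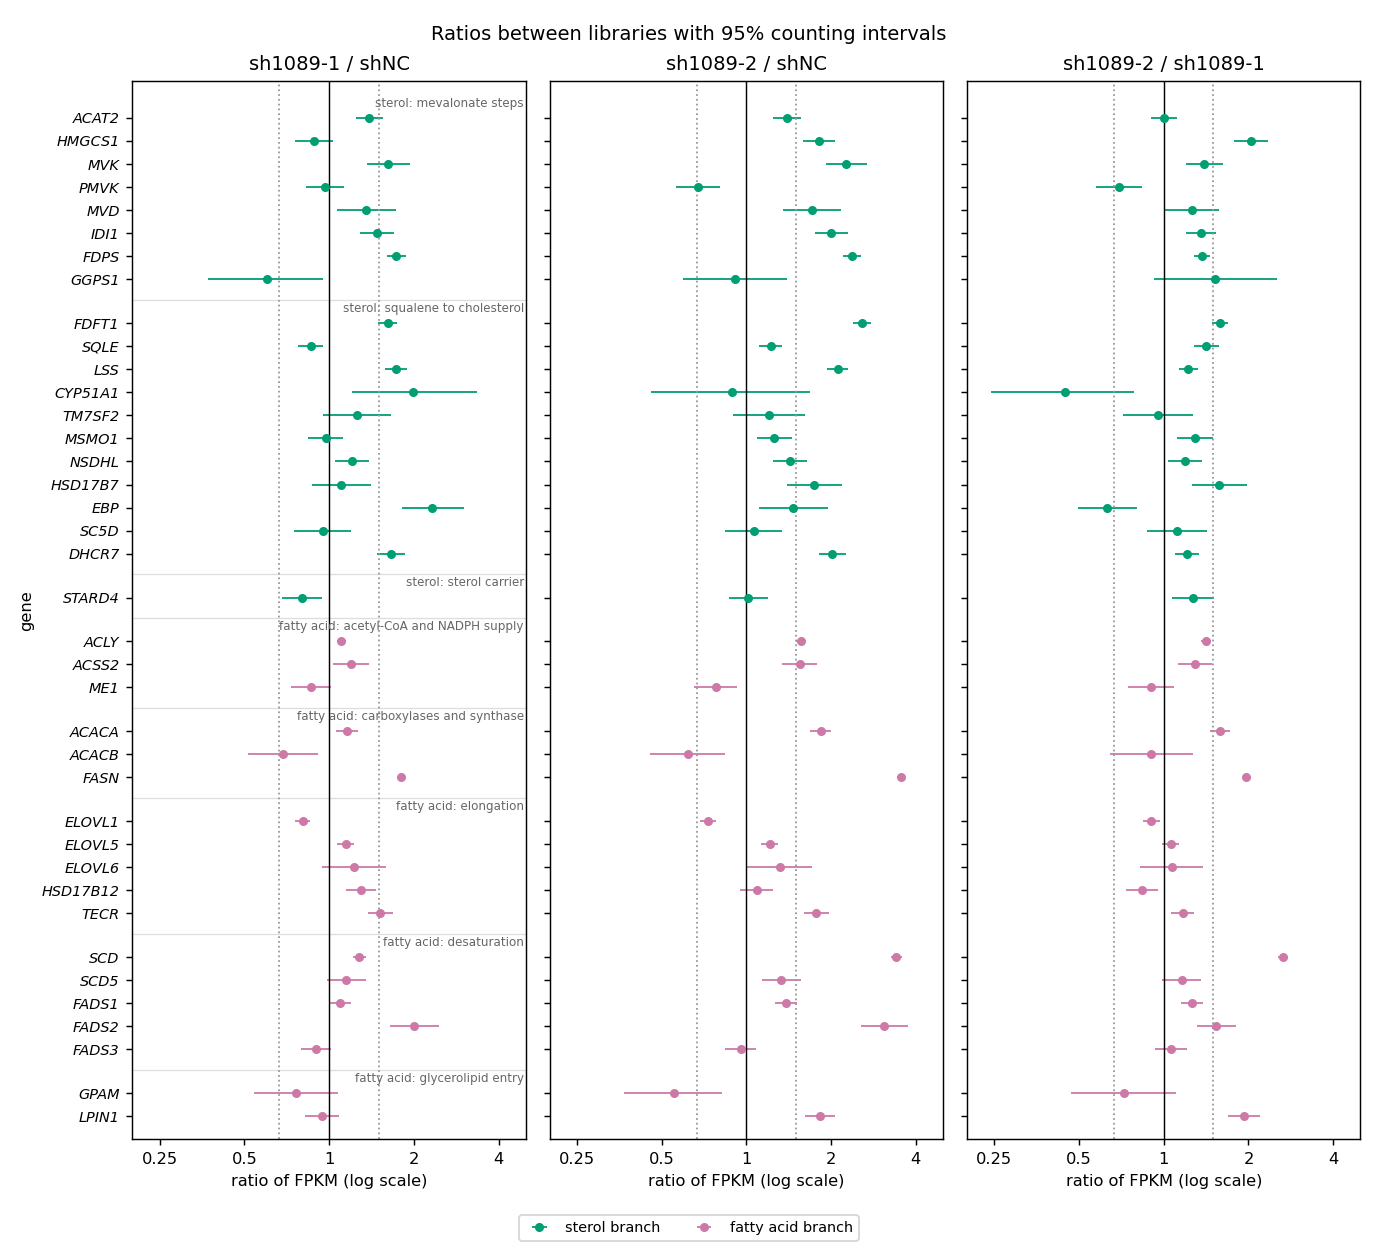
Ratio of FPKM between 2 libraries (log scale, x axis) for each of the 38 genes, with 95% counting intervals as bars; the solid line marks 1 and dotted lines 1.5-fold either way. FASN, SCD and FADS2 lie furthest right for sh1089-2 over shNC, at 3.53, 3.41 and 3.09, and EBP lies left of 1 for sh1089-2 over sh1089-1.

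The branches were then set beside each other. In sh1089-1 5 of 19 tested sterol genes (26.3%) and 2 of 16 fatty acid genes (12.5%) were at least 1.5-fold higher. The share of all genes tested was 5.27%, and the branch medians were 0.26 and 0.19. With genes of a mean of at least 5 FPKM only, the sterol median was 0.48 and the fatty acid median 0.19. In sh1089-2 the counts were 9 (47.4%) and 7 (43.8%), against 4.89% of all genes tested, with medians of 0.50 and 0.49. With genes of a mean of at least 5 FPKM only, these medians were 0.62 and 0.42. Between the hairpin lines 2 sterol genes and 4 fatty acid genes were higher in sh1089-2, with medians of 0.29 and 0.26. The 6 genes are HMGCS1, FDFT1, ACACA, FASN, SCD and LPIN1. In words, HMGCS1 and LPIN1 were near shNC in sh1089-1 and above it in sh1089-2, while FASN and FDFT1 were above it in each. Whether the branches differ was not tested, since each value rests on 1 library.

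Summed levels were higher in each hairpin library in both branches, relatively more so for sterol genes in sh1089-1 and for fatty acid genes in sh1089-2. In bulk RNA, more RNA in every cell and a larger share of cells with a high level cannot be told apart. The 20 sterol genes summed to 203, 266 and 325 FPKM, which is 1.31-fold and 1.60-fold above shNC. The 18 fatty acid genes summed to 413, 491 and 767 FPKM, or 1.19-fold and 1.86-fold. In shares of all reads the fatty acid branch took 0.228%, 0.298% and 0.501%, and the sterol branch 0.0758%, 0.103% and 0.135%. A few abundant genes carried the fatty acid sum. FASN, SCD and ACLY, chosen after their values were seen, made up 50.4%, 58.7% and 72.1% of it, and the other 15 genes together had 205, 203 and 214 FPKM. Those 15 include ELOVL1, with 94.0, 75.8 and 68.6 FPKM, and genes that were higher in the hairpin libraries, such as TECR. Their near-level sum thus mixes both directions and does not show that each gene was level. FDPS and FDFT1 made up 22.1%, 28.3% and 33.9% of the sterol sum. Without them that sum still went from 158 to 191 and 215 FPKM over 18 genes.

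**Figure D4:**
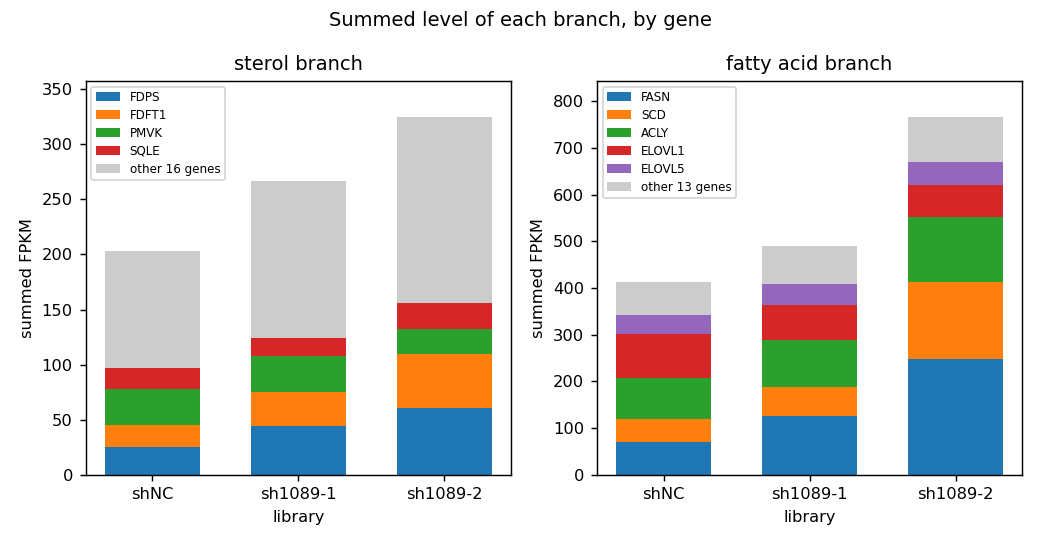
Summed FPKM (y axis, from 0) of the sterol and the fatty acid genes in each library (x axis, 1 bar per library), stacked by gene. FASN and SCD account for most of the growth of the fatty acid bar from 413 to 767. The sterol bar grows from 203 to 325, with FDPS and FDFT1 going from 22.1% to 33.9% of it.

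Other genes of the pathway were taken from lists by textbook role. The sterol and isoprenoid list is given here in part, so no count or median of it is given. IDI2, a relative of IDI1, was lower in sh1089-2 on 46, 33 and 14 reads. PDSS1, of ubiquinone synthesis, had 4.79, 7.57 and 4.38 FPKM and so stood higher in sh1089-1 than in sh1089-2.

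Genes next to the fatty acid branch were called at about the share of all genes. Of 29 further fatty acid and glycerolipid genes, 23 were tested. In each hairpin library 1 was higher (MCAT in sh1089-1, ACSL3 in sh1089-2) and 1 lower, ELOVL3, on 43, 20 and 16 reads. That is 4.35% higher and 4.35% lower, beside 5.27% and 5.83% of all genes tested in sh1089-1 and 4.89% and 5.63% in sh1089-2. The medians were -0.05 and 0.09. In the fatty acid oxidation list, the opposing pathway, 0 of 20 tested genes were higher in either library and 1, ACAA2, was lower in sh1089-2, beside the same shares of all genes, with medians of -0.15 and -0.10. MCAT, ACSL3, ACAA2 and APOE are named as the genes behind counts of 1, chosen after their values were seen. The list of sterol efflux had 3 tested genes of 11, too few to stand for that pathway. Of the 3, 1 was lower in sh1089-1, APOE, with 11.1, 5.02 and 7.66 FPKM, beside 5.83% of all genes tested. The others were within the bound in both hairpin libraries, and the medians were -0.34 and -0.27.

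Some genes that control these enzymes differed as well. SREBF1, which encodes SREBP-1, had 16.4, 34.7 and 44.6 FPKM, 2.11-fold (1.98 to 2.25) and 2.71-fold (2.54 to 2.89) above shNC. RAI1 overlaps SREBF1 by 556 exonic bases on the other strand and had 7.60, 12.1 and 11.9 FPKM. The part of RAI1 reads in the value of SREBF1 was not tested. SREBF2, which encodes SREBP-2, had 20.9, 22.2 and 29.1 FPKM, within the bound. INSIG1, which holds SREBP in the endoplasmic reticulum, had 16.1, 32.4 and 64.4 FPKM, 2.01-fold (1.82 to 2.22) and 3.99-fold (3.65 to 4.38) above shNC. Its order over the libraries was that of FASN. INSIG2 had 4.09, 3.51 and 2.66 FPKM and SCAP, the SREBP escort, 22.1, 19.7 and 19.0. NPC1, the lysosomal cholesterol exporter, was 1.82-fold (1.73 to 1.91) lower in sh1089-1, with 49.0, 26.9 and 41.1 FPKM. This list too is given in part, with no count.

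Position in the genome was described as well. For each gene the median difference of the 50 nearest tested protein-coding genes was taken. Over FASN, on chromosome 17, it was 0.12 in sh1089-1 and 0.05 in sh1089-2, beside 0.84 and 1.81 for the gene. Around SCD it was -0.10 and -0.01, and around FDPS -0.05 and -0.07. LSS had neighbours at 0.13 and 0.15, DHCR7 at 0.16 and 0.07, and TECR at 0.16 and 0.10. TM7SF2 had the highest neighbour median of the 38 genes in sh1089-1, 0.27, close to its own 0.25. The spread of the neighbours was not taken, and their part in the values of these genes was not tested. SREBF1 is not among the 38, and its neighbours had medians of 0.39 and 0.23, above those around any of the 38 genes. Their part in its value was not tested either.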

How the data were processed

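Messenger RNA of 3 SK-Hep-1 libraries (shNC, sh1089-1, sh1089-2) was sequenced after Trizol extraction, mRNA enrichment and strand-specific library construction, per the labels' protocols. The deposited table gives FPKM as the authors computed them. FastQC, StringTie and build GRCh38 are named in the submitters' processing notes; for the aligner, versions, annotation and use of strand, nothing is given in the sources used here.

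Symbols were found for 22375 of 22464 identifiers, and 22444 are in GENCODE 29 (GRCh38), which gave coordinates. Depth was worked out from FPKM: for 19219 genes above 0, a whole gene length was sought at which every value is a whole number of reads (tolerance 0.001 plus rounding). It was found for 100% of them, and equalled the GENCODE 29 exon length in 62.3%. On 586 genes with simulated reads the recovery was exact for 99.7%. With 0 reads a gene can still have 0.280, 0.315 and 0.359 RPM (3 reads of the total). The reads served for intervals only, and no count test was run. Python 3.11.15, pandas 2.3.3 and scipy 1.17.1 were used.

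Members and lists were chosen with earlier results of these data known. Named genes are all members, plus listed pathway genes 1.5-fold from shNC in the same direction in each hairpin library or 1.5-fold apart between them, plus 5 SREBP control genes; 4 more stand behind counts of 1. A few other pathway genes are not reported here, and counts of their lists were left out. No analysis used protein sequences. The 7 alternatives are given in the closing section.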

Additional observations from a re-analysis of the deposited data

How the results depend on the processing

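Over 7 alternatives (pseudocount 0.1, no filter, mean FPKM of at least 5, rescaling to TPM, centring the median of all genes, a call at 2-fold, protein-coding genes only), no branch median or called gene changed direction. Medians ranged from 0.26 to 0.48 (sterol) and 0.18 to 0.22 (fatty acid) for sh1089-1 against shNC, and from 0.49 to 0.62 and 0.39 to 0.60 for sh1089-2. A call at 2-fold cut the sterol genes higher from 5 to 1 in sh1089-1, from 9 to 3 in sh1089-2, and from 2 to 0 between the hairpin lines, where the 1 lower also became 0. The fatty acid counts went from 2 to 0, from 7 to 3 and from 4 to 1, by construction of the stricter bound. With a pseudocount of 0.1 GGPS1 became the 1 sterol gene lower in sh1089-1; at a mean of at least 5 FPKM FADS2 was no longer tested, leaving 1 fatty acid gene higher there. With a pseudocount of 0.1, TPM or median centring, MVK and TECR also became higher in sh1089-1 and ACSS2 in sh1089-2, as did EBP there with TPM. HSD17B7 and FADS2 became higher between the hairpin lines with a pseudocount of 0.1 or TPM. The single-gene values that moved by more than their counting interval were ACLY and FASN after rescaling to TPM (0.71 and 1.89 against shNC in sh1089-2, and 1.01 for FASN between the hairpin lines). No paired analysis was possible because each group is 1 library. Depth limits genes that rest on few reads, among them CYP51A1, GGPS1, GPAM, ACACB, EBP, TM7SF2, ELOVL6, PDSS1, IDI2 and ELOVL3.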
